A study of Mus musculus with 24 samples.

Results

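The circadian clock genes described here are 10 genes of the transcriptional feedback loop that keeps daily time in cells: Arntl (also called Bmal1), Clock, Npas2, Per1, Per2, Per3, Cry1, Cry2, Nr1d1 and Dbp. They were chosen by name, and each was found under 1 Ensembl identifier among the 55416 identifiers of the deposited count table. All 10 were among the 18005 genes with enough counts to be tested. RNA came from the inner medulla, the innermost zone of the kidney, of C57BL/6 mice aged 9 to 10 weeks, an inbred strain in which no engineered allele is labelled. Cisplatin, a platinum drug given against tumours, crosslinks DNA and is toxic to kidney tubules. The 24 libraries comprised 6 from males and 5 from females given cisplatin (15 mg/kg), and 6 from males and 7 from females given saline. All groups had a single intraperitoneal injection (100 µl) and were sampled after 72 h. Whether each library holds RNA of 1 animal is not stated, and the p-values describe only the spread of these libraries. The time of day at injection and collection is not given in any source used here.

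In the clock, a dimer of ARNTL with CLOCK or with its relative NPAS2 binds E-box sequences and switches on the Per and Cry genes, Nr1d1 and Dbp. PER and CRY proteins then enter the nucleus and repress that dimer, and NR1D1 (REV-ERB alpha) represses Arntl itself, which gives the loop its daily period. Arntl and Dbp RNA therefore peak at opposite times of day in most mouse tissues, the kidney included, where the clock is known for daily rhythms of sodium and water excretion. Below, Arntl, Clock and Npas2 are called the positive arm, and the other 7 genes the negative arm with its outputs.

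Promoter windows of 4 members are shown because they hold matches to short sequences known from the loop. Each runs from 250 bases before to 50 bases after a RefSeq transcription start (GRCm38.p6), 5′ to 3′ on the strand of the gene. Of the 10 members 9 had such windows, 13 in all, and Per2 had none. Both strands were searched for CACGTG (E-box), CACGTT (an E-box variant), TTANGTAA (D-box, the element bound by DBP and its relatives), TNGGTCA and TGACGTCA (cAMP response element). TNGGTCA is a loose form of the core bound by ROR and REV-ERB proteins, with any base at its second position. A match to it need not be that core. Capitals mark matches, and positions are counted from the start of transcription as 1, with -1 the base before it.
Arntl, second window, chr7:113207261-113207560, plus strand: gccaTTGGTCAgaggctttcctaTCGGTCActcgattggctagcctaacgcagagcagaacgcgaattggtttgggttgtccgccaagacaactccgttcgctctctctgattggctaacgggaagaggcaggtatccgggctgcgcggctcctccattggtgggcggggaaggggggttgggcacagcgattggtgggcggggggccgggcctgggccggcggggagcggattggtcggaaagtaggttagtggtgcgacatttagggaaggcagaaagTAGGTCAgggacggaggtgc
Per1, first window, chr11:69098699-69098998, plus strand: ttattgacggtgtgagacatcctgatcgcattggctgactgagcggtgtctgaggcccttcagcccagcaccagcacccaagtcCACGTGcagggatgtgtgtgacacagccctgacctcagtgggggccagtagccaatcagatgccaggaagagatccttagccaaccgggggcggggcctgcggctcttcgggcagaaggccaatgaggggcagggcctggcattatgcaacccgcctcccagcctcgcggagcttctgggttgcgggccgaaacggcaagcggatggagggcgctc
Per3, chr4:151044616-151044915, minus strand: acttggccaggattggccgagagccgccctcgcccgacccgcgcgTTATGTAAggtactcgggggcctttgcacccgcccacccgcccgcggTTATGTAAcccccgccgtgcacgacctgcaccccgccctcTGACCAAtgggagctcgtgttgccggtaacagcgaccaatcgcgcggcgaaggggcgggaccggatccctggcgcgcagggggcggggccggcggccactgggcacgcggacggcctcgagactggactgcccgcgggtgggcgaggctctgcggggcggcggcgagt
Cry1, chr10:85185005-85185304, minus strand: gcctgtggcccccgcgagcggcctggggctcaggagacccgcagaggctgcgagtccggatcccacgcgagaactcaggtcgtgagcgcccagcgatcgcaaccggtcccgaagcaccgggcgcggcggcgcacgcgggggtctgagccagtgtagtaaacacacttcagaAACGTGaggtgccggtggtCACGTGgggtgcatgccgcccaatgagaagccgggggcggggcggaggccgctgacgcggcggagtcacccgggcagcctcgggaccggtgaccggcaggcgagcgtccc
The second Arntl window held TNGGTCA at -246 (as TTGGTCA), -227 (as TCGGTCA) and 31 (as TAGGTCA). The Per1 window held 1 E-box at -166. Per3 held D-boxes at -205 and -158 and TNGGTCA on the other strand at -118 (printed as TGACCAA). Cry1 held an E-box at -60 and the E-box variant at -79. Among the windows not printed, Cry2 held the E-box variant at -166 and TNGGTCA at -133, also as TGACCAA, and Nr1d1 held the E-box variant at -28. The first Arntl window held the same TTGGTCA and TCGGTCA, at -200 and -181 from its own start. The second Per1 window held no match. The windows of Clock, Npas2 and Dbp held no match to these letters. Over all 32851 mouse windows of this length, 7.15% held CACGTG, 4.68% CACGTT, 2.32% TTANGTAA, 11% TNGGTCA and 1.79% TGACGTCA. These matches describe the letters of the windows and are not measured binding.

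In units of 1000000 counts, libraries held 18.1 to 27.3, with a mean of 22.6 ± 2.70 (SD, n = 24). Aqp2, the water channel of collecting duct principal cells, lay between 3568 and 8902 counts per 1000000 (CPM) in all libraries. The libraries male cisplatin 5, female saline 1 and female saline 6 were named as divergent in composition in an earlier account of these data and were also left out together. Male cisplatin 5 had the lowest mean correlation with its own group (0.949) and female saline 6 the lowest of the female saline libraries (0.974), while female saline 1, at 0.980, lay within the range of the other female saline libraries. Some results are also given without these 3 libraries. Members were well covered, with counts of 85 (Npas2) to 3597 (Nr1d1) in a library.

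The level of the clock genes, per kilobase of exon, was read in the 13 saline libraries. Nr1d1 stood highest at 33.0 ± 5.46 CPM per kilobase (SD, n = 13), and its lowest library, at 23.9, lay above the highest library of Per1, at 19.5. Per1 followed at 12.3 ± 3.83, Cry2 at 9.56 ± 2.23, Dbp at 7.63 ± 3.39, Cry1 at 6.14 ± 1.12 and Clock at 5.63 ± 0.513 CPM per kilobase. Arntl stood at 4.76 ± 1.24, Per3 at 4.30 ± 0.862, Per2 at 4.24 ± 0.865 and Npas2 lowest at 2.66 ± 0.695 CPM per kilobase. Apart from the step below Nr1d1, every pair of neighbours in this order overlapped between libraries.

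None of the 10 clock genes passed the test of cisplatin against saline in either sex. The test was edgeR's quasi-likelihood test with Benjamini-Hochberg adjustment over all genes, and an adjusted p under 0.05 counted as changed. In males 0 of 10 members passed, where 20.7% of all tested genes did. An unadjusted p under 0.05 was found for 3 members and for 6483 of all 18005 genes. DESeq2 called 1 member and 4364 genes in all. In females 0 of 10 passed, where 0.272% of all genes did. There 0 members and 2664 of all genes had an unadjusted p under 0.05. DESeq2 called 0 members and 241 genes in all. For the mean of both sexes 0 of 10 passed, against 27.1% of all genes. Here 4 members and 7240 of all genes had an unadjusted p under 0.05. DESeq2 called 1 member and 5488 genes in all. The median log2 fold change over the members was -0.01 in males, 0.03 in females and 0.01 for the mean, against 0.02, 0.01 and 0.01 over all tested genes. The members' fold changes therefore centred where all genes did, with members on both sides.

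**Figure D1:**
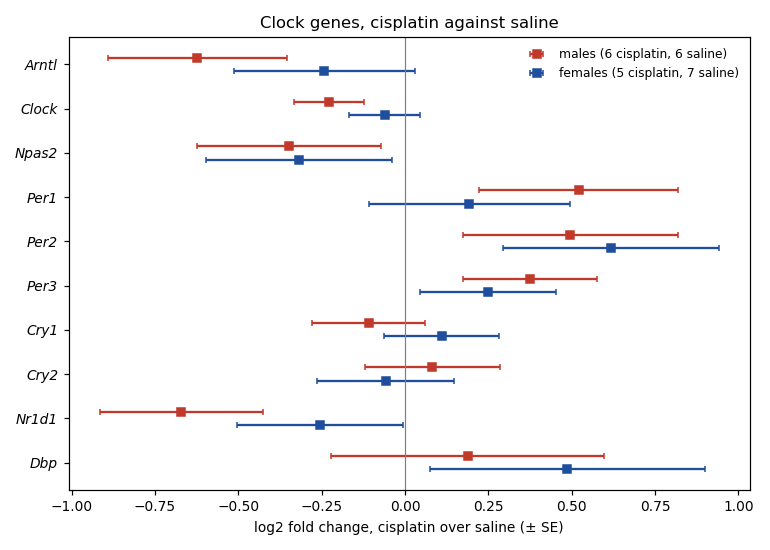
Log2 fold change (cisplatin over saline, horizontal axis) of the 10 clock genes (vertical axis) in males (red, 6 cisplatin and 6 saline libraries) and females (blue, 5 cisplatin and 7 saline libraries); squares are edgeR estimates and bars 1 SE. Arntl, Clock, Npas2 and Nr1d1 lie left of 0 and Per1, Per2, Per3 and Dbp right of 0 in both sexes, and none passed at an adjusted p under 0.05.

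Among the positive arm, Arntl (chromosome 7, 113207465 to 113314126, plus strand, GRCm38), the partner without which the clock stops, had values in males of 20.8, 17.9, 14.5, 27.0, 15.4 and 43.1 CPM in cisplatin libraries 1 to 6. Male saline libraries lay between 24.95 and 50.5 CPM with a median of 33.1 CPM. Of these libraries 4 of 6 lay below the saline range, and male cisplatin 6 was the highest of its group and within the saline range. The log2 fold change was -0.62 ± 0.27 (SE; edgeR adjusted p = 0.0973). Female cisplatin libraries 1 to 5 had 50.8, 24.2, 36.2, 20.7 and 20.03 CPM, against 23.5 to 47.7 CPM (median 38.7) under saline. Here 2 cisplatin libraries lay below the saline range, 1 above and 2 within, and the log2 fold change was -0.24 ± 0.27 (edgeR adjusted p = 0.702). Arntl passed in males in 2 of 31 alternatives (adjusted p up to 0.207 over the alternatives). Without male cisplatin 6 the log2 fold change was -0.90 in males (edgeR adjusted p = 0.00994), and with the replicate number as a block -0.68 (adjusted p = 0.0388). The mean of both sexes passed in 2 of 30 alternatives (adjusted p up to 0.179 over the alternatives). These left out female cisplatin 1 (adjusted p = 0.0256) or male cisplatin 6 (0.0145).

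Clock, the partner of ARNTL in the activating dimer, varied least of all members. It ranged from 49.5 to 81.1 CPM (median 68.3) in male cisplatin libraries and from 71.7 to 89.0 CPM (median 75.7) in male saline libraries. Of the male cisplatin libraries 5 of 6 lay below the saline range, and the log2 fold change was -0.23 ± 0.10 (edgeR adjusted p = 0.118). In females it had 91.2, 67.5, 75.7, 61.7 and 70.7 CPM under cisplatin and 67.9 to 93.1 CPM under saline, so that 2 of 5 lay below the saline range. Npas2, a relative that can stand in for CLOCK, had 4.70 to 17.2 CPM (median 7.25) in male cisplatin and 6.79 to 13.8 CPM (median 11.9) in male saline libraries. Its highest value under cisplatin was again in male cisplatin 6, and the log2 fold change was -0.35 ± 0.28 in males (edgeR adjusted p = 0.373) and -0.32 ± 0.28 in females (0.608). Without male cisplatin 6, Npas2 passed in males at -0.67 (edgeR adjusted p = 0.0447). It passed in males in 1 of 31 alternatives (adjusted p up to 0.624 over the alternatives).

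**Figure D2:**
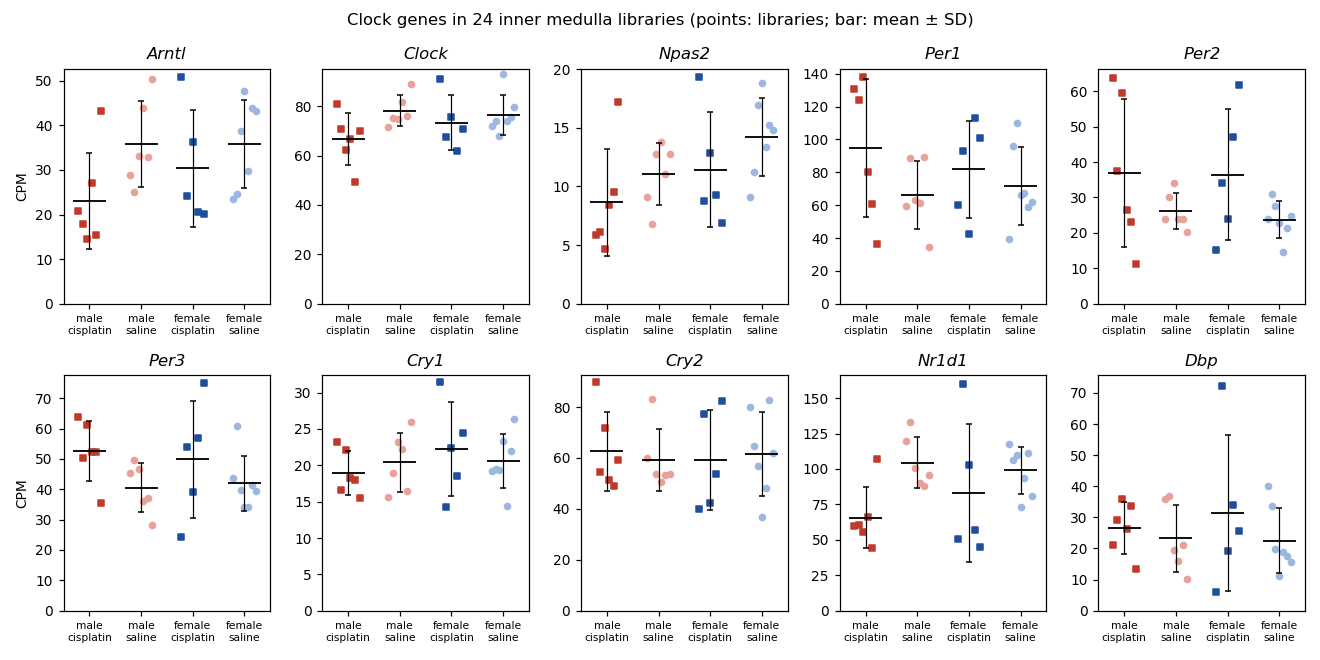
CPM (vertical axes, linear, starting at 0) of each of the 10 clock genes by group; squares are cisplatin and circles saline libraries, and bars are the mean ± SD of the group. Arntl and Nr1d1 lie low in most male cisplatin libraries, with male cisplatin 6 apart at 43.1 and 107 CPM, and for Per2 and Nr1d1 the cisplatin libraries spread more widely than the saline libraries.

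The period genes, which encode the repressors that accumulate and shut the loop down, leaned the other way without passing. Per1, the member most quickly induced by stress hormones and by light in the brain clock, had 131, 124, 138, 80.2, 60.8 and 36.4 CPM in male cisplatin libraries 1 to 6, against 34.8 to 89.5 CPM (median 62.2) in male saline libraries. Male cisplatin 1, 2 and 3 lay above the whole saline range and the other 3 within it. Its log2 fold change was 0.52 ± 0.30 in males (edgeR adjusted p = 0.211) and 0.19 ± 0.30 in females (0.791). Per2, a core repressor, had 63.8, 37.5, 59.4, 26.4, 23.0 and 11.3 CPM in male cisplatin libraries 1 to 6, against 20.4 to 34.1 CPM (median 24.01) in male saline libraries. The same 3 male libraries lay above the saline range, and male cisplatin 6 lay below it. In females Per2 had 15.2, 34.2, 24.01, 47.0 and 61.8 CPM under cisplatin, against 14.6 to 31.1 CPM under saline. Of these 3 of 5 lay above the saline range, with a log2 fold change of 0.62 ± 0.32 (edgeR adjusted p = 0.373), against 0.50 ± 0.32 in males (0.274). For the mean of both sexes Per2 stood at 0.56 ± 0.23 (edgeR adjusted p = 0.0704). It passed in 2 of 30 alternatives, without male cisplatin 6 (0.0149) or female cisplatin 1 (0.0276), with adjusted p up to 0.344 over the alternatives. Per3, the period gene least needed for the rhythm, had 35.6 to 63.9 CPM (median 52.2) in male cisplatin and 28.2 to 49.8 CPM (median 41.3) in male saline libraries. Of the male cisplatin libraries 5 of 6 lay above the saline range, and the log2 fold change was 0.37 ± 0.20 in males (edgeR adjusted p = 0.182) and 0.25 ± 0.20 in females (0.579). For the mean of both sexes Per3 passed without female cisplatin 1 (edgeR adjusted p = 0.0189), in 1 of 30 alternatives (adjusted p up to 0.291 over the alternatives).

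The cryptochromes, the strongest repressors of the activating dimer, had the smallest fold changes of the members in males. Cry1 had 15.5 to 23.2 CPM (median 18.1) in male cisplatin and 15.6 to 25.96 CPM (median 20.6) in male saline libraries, with a log2 fold change of -0.11 ± 0.17 (edgeR adjusted p = 0.668). In females Cry1 had 14.3 to 31.5 CPM under cisplatin and 14.4 to 26.4 CPM under saline, at 0.11 ± 0.17 (0.792). Cry2 had 48.9 to 89.8 CPM (median 56.8) in male cisplatin and 50.7 to 83.2 CPM (median 53.6) in male saline libraries, at 0.08 ± 0.20 (0.796), and -0.06 ± 0.21 in females (0.914). The direction of these small differences turned under alternatives: Cry2 in males was -0.146 with a score of tubule markers in the model, and Cry1 in females was -0.0503 without female cisplatin 1.

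Nr1d1 (chromosome 11, 98767932 to 98775333, minus strand, GRCm38), the heme-binding nuclear receptor that represses Arntl, stood nearest to the threshold. It had 60.1, 60.6, 55.8, 66.3, 44.0 and 107 CPM in male cisplatin libraries 1 to 6, against 87.9 to 133 CPM (median 98.3) in male saline libraries. Male cisplatin 1 to 5 lay below every male saline library, and male cisplatin 6 lay within their range. The log2 fold change was -0.67 ± 0.24 (edgeR adjusted p = 0.0530). In females it had 50.4, 160, 103, 56.9 and 44.7 CPM under cisplatin, against 73.4 to 118 CPM (median 106) under saline. There 3 of 5 cisplatin libraries lay below the saline range, 1 above it and 1 within, at -0.26 ± 0.25 (edgeR adjusted p = 0.650). The mean of both sexes stood at -0.46 ± 0.17 (edgeR adjusted p = 0.0506).
For the mean of both sexes Nr1d1 passed in 7 of 30 alternatives (adjusted p up to 0.148 over the alternatives). The Nr1d1 call in males turned with small changes of the fit, passing in 8 of 31 alternatives (adjusted p up to 0.125). It passed in DESeq2 (adjusted p = 0.0333), with the male libraries fitted alone in edgeR (0.0273), and with male cisplatin 6 left out (log2 fold change -0.87, edgeR adjusted p = 0.00969). It also passed without female cisplatin 1 (0.0452), 2 (0.0207), 4 (0.0477) or 5 (0.0394), which are not part of that contrast. For the mean of both sexes it passed in DESeq2 (0.0328), without male cisplatin 6 (-0.56, edgeR adjusted p = 0.0128), without female cisplatin 2 (-0.65, 0.00284) or 3 (0.0405), and without female saline 4 (0.0440). Without the 3 libraries of divergent composition the male value was -0.58 (edgeR adjusted p = 0.124) and that for the mean of both sexes -0.37 (0.148). Exons of Nr1d1 overlap those of Thra, a thyroid hormone receptor gene on the other strand, over 263 of its 3077 bases, and the sources used here do not give the strand setting of the counting. Thra had a log2 fold change of -0.28 ± 0.13 in males (edgeR adjusted p = 0.117) and fell for the mean of both sexes (-0.26 ± 0.09, 0.0393); how far shared reads enter the Nr1d1 value was not tested.

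Dbp, an output activator with a large daily rhythm, overlapped between treatments. It had 21.0, 29.1, 36.1, 26.3, 33.8 and 13.3 CPM in male cisplatin libraries 1 to 6, all within the male saline range of 10.3 to 36.8 CPM. In females it had 5.91, 72.3, 19.1, 33.9 and 25.8 CPM under cisplatin, against 11.1 to 40.04 CPM under saline. Female cisplatin 1 and female cisplatin 2 held the lowest and the highest Dbp of the study, 12.2-fold apart. The log2 fold change was 0.19 ± 0.41 in males (edgeR adjusted p = 0.769) and 0.49 ± 0.41 in females (0.593). Dbp shares 539 of its 2993 exon bases with Sphk2 on the other strand.

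No clock gene passed a test between the sexes or of a difference in the cisplatin effect between them. Under cisplatin, females against males, log2 fold changes lay between -0.22 (Per1) and 0.40 (Npas2) and 0 of 10 passed edgeR's test, where 0.156% of all genes did. Under saline they lay between -0.14 (Per2) and 0.37 (Npas2) and 0 of 10 passed, where 0.189% of all genes did. The difference of the cisplatin effects, females minus males, lay between -0.33 (Per1) and 0.41 (Nr1d1), with 0 of 10 passing against 0.00% of all genes. In these 3 tests 0 members had an unadjusted p under 0.05, where 1750, 580 and 772 of all 18005 genes did, and DESeq2 called 0. The intervals are wide: for Nr1d1 that difference was 0.41 ± 0.35 (SE).

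The relation between the arms was read within each library as the mean log2 CPM of Arntl, Clock and Npas2 minus that of the other 7 genes. It is a score over chosen genes and is given with no test. In male cisplatin libraries 1 to 6 it was -1.33, -1.18, -1.77, -0.71, -0.93 and 0.34, with a median of -1.05, against -1.15 to 0.31 (median -0.39) in male saline libraries. Male cisplatin 1, 2 and 3 lay below the saline range, and male cisplatin 6 lay just above it. In female cisplatin libraries 1 to 5 it was 0.77, -1.25, -0.12, -1.07 and -1.29, with a median of -1.07, against -0.88 to 0.44 (median -0.14) in female saline libraries. Female cisplatin 2, 4 and 5 lay below the saline range and female cisplatin 1 above it. In each sex 3 cisplatin libraries thus lay below the saline range and 1 above it, in males by little.

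The ratio of Nr1d1 to Per2, a pair chosen after their values were seen, is given with no test. Both genes are targets of the same activating dimer. In male cisplatin libraries 1 to 6 it was 0.942, 1.62, 0.940, 2.51, 1.92 and 9.48, against 2.95 to 5.01 in male saline libraries. Male cisplatin 1 to 5 lay below every male saline library and male cisplatin 6 above. In female cisplatin libraries 1 to 5 it was 3.32, 4.67, 4.29, 1.21 and 0.724, against 3.23 to 6.44 in female saline libraries, so that female cisplatin 4 and 5 lay below and the other 3 within. For the ratio of Arntl to Dbp, 3 of 6 male cisplatin libraries and 1 of 5 female cisplatin libraries lay below the saline range of their sex, 1 female library above it and 3 of each sex within.

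**Figure D3:**
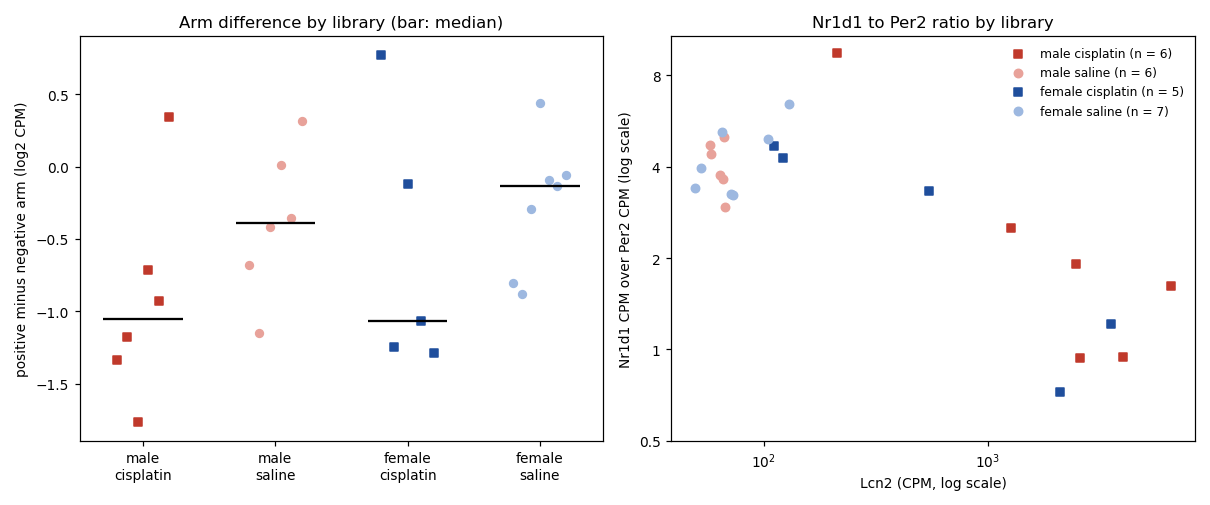
Left, positive arm minus negative arm (difference of mean log2 CPM) in each library by group, with group medians as lines (-1.05 in male cisplatin, -0.39 in male saline, -1.07 in female cisplatin and -0.14 in female saline libraries). Right, the ratio of Nr1d1 to Per2 CPM (log scale) against Lcn2, a kidney injury marker (CPM, log scale), in the same libraries; saline libraries cluster at 49.4 to 129 CPM of Lcn2, and the cisplatin libraries with Lcn2 of 1265 CPM and above have ratios of 2.51 and below.

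Across libraries 22 of the 45 pairs of clock genes were correlated. Correlations were computed over log2 CPM with the mean of each group removed (n = 24), with 100000 permutations within groups and Benjamini-Hochberg adjustment over the 45 pairs. For a pair of members, the 2 farthest libraries are those farthest from the median of 1 gene, the one named first in the opening list. An extreme library of the other gene can therefore stay in. At an adjusted p under 0.05, 10 pairs passed as positive and 12 as negative, the weakest at an absolute r of 0.533. That size was reached by 48.9% of the member pairs and by 10.6% of all pairs of the 18005 tested genes (5.49% positive and 5.15% negative), which is given as a description with no test, since pairs share genes and libraries. Of the 21 pairs between the arms 16 were negative, with a median r of -0.49, and 10 of them passed as negative. Only Clock with Cry1 passed as positive between the arms (r = 0.533, rho = 0.509, permutation p = 0.0122 and 0.0189, adjusted p = 0.0288 and 0.0444, r = 0.506 without the 2 farthest libraries). Within the positive arm all 3 pairs were positive and 2 passed. Over the 24 libraries together Nr1d1 did not follow the division into arms, with r of 0.095 with Arntl, -0.086 with Clock and 0.009 with Npas2. Its 1 passing pair there was negative, with Cry1 of its own arm (-0.553). In the 13 saline libraries alone r of Nr1d1 was -0.654 with Arntl, -0.719 with Clock and -0.726 with Npas2.

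Over all 24 libraries Arntl with Dbp was the most negative pair. Pearson's r was -0.829 (permutation p = 2e-05, adjusted p = 3e-04) and Spearman's rho -0.874 (p = 1e-05, adjusted p = 0.000225). Without the 2 libraries farthest from the median of Arntl, r was -0.776. Within groups r was -0.921 in male cisplatin (exact p = 0.0139), -0.959 in male saline (exact p = 0.00694) and -0.922 in female saline libraries (exact p = 0.00159). No value is given for the 5 female cisplatin libraries, since correlations were computed only over 6 or more. Female cisplatin 1 combined the highest Arntl (50.8 CPM) with the lowest Dbp (5.91 CPM) of all 24 libraries. Other pairs were more negative in subsets: without the 3 libraries r was -0.818 for Arntl with Dbp and -0.854 for Arntl with Per3. In the 11 cisplatin libraries it was -0.767 for Arntl with Dbp (-0.435 without the 2 farthest), against -0.966 for Npas2 with Per2, -0.889 for Npas2 with Per1 and -0.842 for Arntl with Per3.

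**Figure D4:**
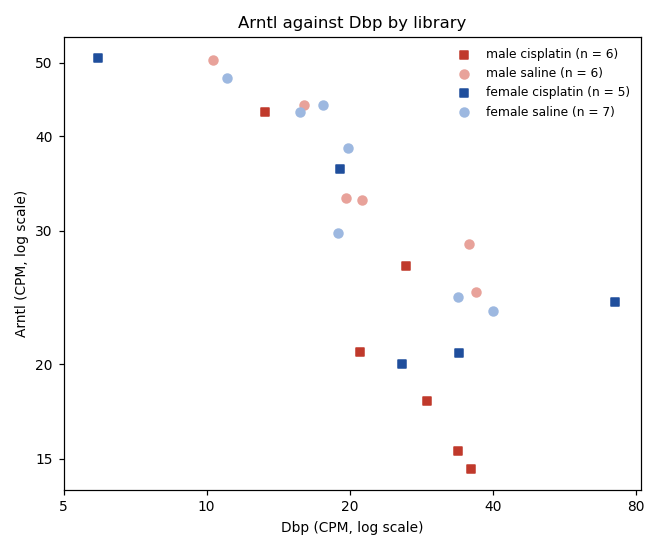
Arntl (CPM, log scale, vertical axis) against Dbp (CPM, log scale, horizontal axis) in the 24 libraries; squares are cisplatin and circles saline, red male and blue female. Libraries of all 4 groups fall along 1 descending band, from 50.8 CPM of Arntl at 5.91 CPM of Dbp (female cisplatin 1) to 14.5 CPM of Arntl at 36.1 CPM of Dbp (male cisplatin 3), with female cisplatin 2 apart at 72.3 CPM of Dbp.

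Arntl went with Npas2 (r = 0.865, rho = 0.807, permutation p = 1e-05 for both, the smallest the permutations can give, adjusted p = 0.000225, r = 0.775 without the 2 farthest). Per2 went with Per3 (r = 0.826, rho = 0.787, permutation p = 1e-05 and 3e-05, adjusted p = 0.000225 and 0.000337, r = 0.748 without the 2 farthest). Arntl ran against Per3 (r = -0.802, rho = -0.768, permutation p = 3e-05 and 0.00012, adjusted p = 0.000337 and 0.0009, r = -0.707 without the 2 farthest). Within the negative arm 14 of 21 pairs were positive and 7 passed as positive. Over the 24 libraries Cry1 stood apart from its arm and passed as negative with Dbp (r = -0.629, rho = -0.570, permutation p = 0.00745 and 0.00991, adjusted p = 0.021 and 0.0279). That relation was -0.381 without the 2 farthest libraries. Within groups it was 0.381 in male cisplatin, -0.792 in male saline and -0.386 in female saline libraries. In male cisplatin libraries r of Cry1 was 0.724 to 0.892 with Per1, Per2, Per3 and Cry2, and -0.479 with Nr1d1. The correlation of the residual log2 CPM with log2 total counts was 0.44 for Arntl and -0.29 for Dbp, and its part in these relations was not tested.

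The values of Nr1d1 are given for saline and cisplatin libraries apart. These splits were made after the pooled values were seen, with sex means removed. In the 13 saline libraries Nr1d1 went with its fellow output Dbp (r = 0.776, rho = 0.753, permutation adjusted p = 0.0297 and 0.0421, r = 0.662 without the 2 farthest) and with Cry2 (r = 0.808, rho = 0.742, adjusted p = 0.0166 and 0.0421, r = 0.631 without the 2 farthest). In the 11 cisplatin libraries the values were 0.277 with Dbp (adjusted p = 0.771, r = 0.083 without the 2 farthest) and 0.117 with Cry2 (adjusted p = 0.856). The Cry2 value rested on 2 libraries and was 0.544 without the 2 farthest, near the 0.631 of saline libraries. With Arntl, its known target, r was 0.356 in cisplatin libraries (rho = 0.491, adjusted p = 0.493) and -0.654 in saline libraries (rho = -0.615, adjusted p = 0.0671). In saline libraries r of Nr1d1 was -0.719 with Clock (rho = -0.747, permutation adjusted p = 0.0329 and 0.0421). With Npas2 it was -0.726 there (rho = -0.643, permutation adjusted p = 0.0336 and 0.0707). In cisplatin libraries the values were 0.095 with Clock (adjusted p = 0.856) and 0.226 with Npas2 (adjusted p = 0.751). Among the 6 male cisplatin libraries alone r was 0.928 (exact p = 0.00833) for Nr1d1 with Arntl and -0.891 (exact p = 0.025) with Dbp. The difference between treatments was not tested. Npas2 with Per2 showed the reverse order, at -0.966 in cisplatin libraries (adjusted p = 0.0036) and -0.168 in saline libraries (adjusted p = 0.646).

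**Figure D5:**
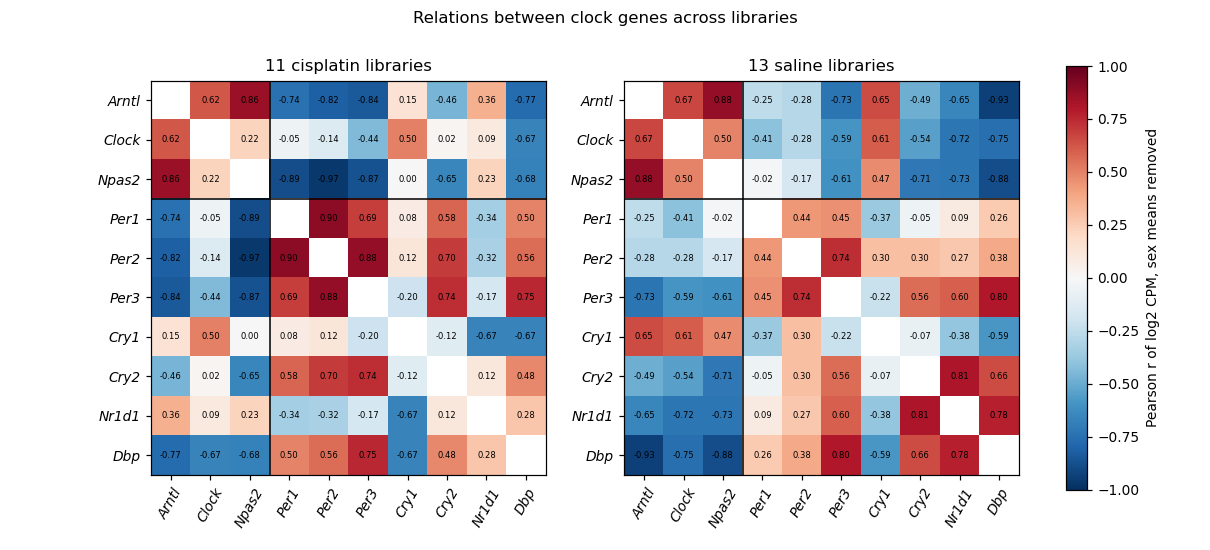
Pearson's r between the 10 clock genes (log2 CPM, sex means removed) over the 11 cisplatin libraries (left) and the 13 saline libraries (right); red is positive, blue negative, and black lines part the positive arm (Arntl, Clock, Npas2) from the other 7 genes. Arntl with Dbp is blue in both (-0.767 and -0.934), while Arntl with Nr1d1 is 0.356 in cisplatin and -0.654 in saline libraries.

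The members also differed in how far libraries of 1 group spread. The SD of log2 CPM within groups was largest for Dbp, at 0.81, which 6.53% of the tested genes exceeded. It was 0.63 for Per2, 0.59 for Per1, 0.50 for Npas2, 0.49 for Arntl and 0.45 for Nr1d1, and smallest for Clock at 0.18, which 81.2% of genes exceeded. Cisplatin libraries spread more than saline libraries for each member: 0.88 against 0.31 for Per2, 0.61 against 0.25 for Nr1d1 and 0.96 against 0.67 for Dbp. The median gene did likewise, at 0.38 in cisplatin and 0.24 in saline libraries.

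Lcn2, which encodes an iron carrier that injured tubules release, is a common marker of kidney injury. It had 4021, 6589, 2578, 1265, 2470 and 213 CPM in male cisplatin libraries 1 to 6 and 546, 111, 122, 3529 and 2097 CPM in female cisplatin libraries 1 to 5. Saline libraries lay between 49.4 and 129 CPM, so that female cisplatin 2 and 3 were within the female saline range. Male cisplatin 6, which had the highest Arntl and Nr1d1 and the lowest Per1 and Per2 of its group, also had its lowest Lcn2. Over the 11 cisplatin libraries (sex means removed, 10 relations tested) r with Lcn2 was -0.814 for Nr1d1 (rho = -0.700, permutation p = 0.0119 and 0.0472, adjusted p = 0.0644 and 0.118). It was -0.632 without male cisplatin 6 and female cisplatin 2, the 2 farthest libraries. For Per1 r was 0.735 (rho = 0.718, permutation p = 0.0129 and 0.0125, adjusted p = 0.0644 and 0.104), and 0.794 without the same 2. Per2 had 0.671 (adjusted p = 0.107), Arntl -0.642 (adjusted p = 0.122) and Dbp 0.112 (adjusted p = 0.808). None of the 10 relations passed after adjustment.

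Of 19 further clock genes, all tested, 3 rose and 1 fell in males, where 13.2% of all tested genes rose and 7.54% fell. In females 0 changed, against 0.272% of all genes, and 4 had an unadjusted p under 0.05, as did 2664 of all 18005. For the mean of both sexes 4 rose and 2 fell, against 16.2% and 10.9% of all genes. The median log2 fold change of the 19 genes was 0.06 in males, 0.10 in females and 0.05 for the mean. Rora, an activator that binds the same element as NR1D1, had 51.6 ± 9.42 CPM in male cisplatin and 67.9 ± 2.48 CPM in male saline libraries (SD, n = 6 each). It fell by 0.39 on the log2 scale (SE 0.11, edgeR adjusted p = 0.0160) and kept this call in 31 of 31 alternatives. Bhlhe40, a repressor that competes for E-boxes, had 153 ± 83.8 CPM in male cisplatin and 76.8 ± 22.4 CPM in male saline libraries. It rose by 1.00 ± 0.29 (edgeR adjusted p = 0.0185), but not without male cisplatin 1 or male cisplatin 2, with the male libraries fitted alone or with a score of tubule markers in the model (adjusted p up to 0.134 over the alternatives). Csnk1d, a kinase that marks PER proteins for decay, rose by 0.25 ± 0.08 (0.0377), a call kept in 19 of 31 alternatives and lost, among others, without male cisplatin 1, 2 or 3 or male saline 1, 3, 4, 5 or 6. For the mean of both sexes Usp2, a deubiquitinase with a strong daily rhythm, rose by 0.82 ± 0.28 (0.0346). That call was kept in 19 of 30 alternatives and lost, among others, without male cisplatin 2 or 3, male saline 2, 3 or 6, female cisplatin 4 or female saline 1 or 7. The Usp2 call was also lost without the 3 libraries of divergent composition. Btrc, part of the ligase that degrades PER, fell by 0.19 on the log2 scale for the same mean (edgeR adjusted p = 0.0248, lost without female cisplatin 4, with no filter on low counts and with the tubule marker score).

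Among 10 kidney genes reported under clock control, 1 rose in males, 0 changed in females (2 at an unadjusted p under 0.05) and 1 rose and 1 fell for the mean of both sexes. Over all tested genes 13.2% rose in males, and 16.2% rose and 10.9% fell for the mean. In females 2664 of all 18005 genes had an unadjusted p under 0.05. Counts this near to those shares are no result about the list. Edn1, which encodes endothelin-1, an inhibitor of sodium reabsorption in the collecting duct, had 23.8 ± 7.00 CPM in male cisplatin and 6.56 ± 2.68 CPM in male saline libraries. It rose by 1.86 ± 0.28 in males (edgeR adjusted p = 0.00029), and Sgk1, a kinase that stabilises the sodium channel, fell by 0.60 on the log2 scale for the mean of both sexes (0.0213). Scnn1a, the sodium channel subunit often studied as a PER1 target, stood at 0.95 ± 0.45 in males without passing (edgeR adjusted p = 0.131).

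Stress hormones and growth signals are known to act on Per1 as well as the clock does, and 2 lists of their targets were counted. Of 10 genes known to be induced by glucocorticoids, 2 rose and 0 fell in males, where 13.2% of all genes rose. For the mean of both sexes 3 rose and 2 fell, against 16.2% and 10.9% of all genes. In females 0 changed, and 5 had an unadjusted p under 0.05, as did 2664 of all 18005 genes. In males and for the mean 5 also had an unadjusted p under 0.05, where 6483 and 7240 of all genes did. The list was not tested, and counts over 10 chosen genes allow no conclusion about it. Fkbp5, a chaperone of the glucocorticoid receptor, had 197, 178, 194, 30.8, 29.8 and 16.1 CPM in male cisplatin libraries 1 to 6, against 20.5 to 38.5 CPM in male saline libraries, and 24.6, 29.3, 25.4, 163 and 156 CPM in female cisplatin libraries 1 to 5, against 8.16 to 26.3 CPM in female saline libraries. The libraries with high Fkbp5, male cisplatin 1, 2 and 3 and female cisplatin 4 and 5, also held the highest Per2 values of their groups. Tsc22d3, also on this list, did not divide the libraries in that way. It had 282, 161, 160, 152, 252 and 202 CPM in male cisplatin libraries 1 to 6, against 129 to 241 CPM in male saline libraries. In female cisplatin libraries 1 to 5 it had 250, 161, 128, 184 and 275 CPM, against 137 to 314 CPM in female saline libraries. Fkbp5 rose by 1.94 ± 0.57 in males (edgeR adjusted p = 0.0201), though not without male cisplatin 3, and Cebpd, a transcription factor of the acute phase, by 1.66 ± 0.46 (0.0140). Zbtb16 rose for the mean of both sexes (1.54 ± 0.40, edgeR adjusted p = 0.00753), where Sgk1 and Dusp1 fell, Dusp1 not without male saline 5 or female cisplatin 2. With the tubule marker score in the model, Zbtb16 stood at 0.48 (adjusted p = 0.301), and Fkbp5 and Cebpd did not pass in males (0.125 and 0.0613). Of 10 immediate early genes 3 rose in males (Fos, Junb and Atf3), where 13.2% of all genes rose. For the mean of both sexes 2 rose and 1 fell (Nr4a1), against 16.2% and 10.9% of all genes. In females 0 changed, and 3 had an unadjusted p under 0.05, as did 2664 of all 18005 genes. The Fos call in males was lost without male cisplatin 5, alone or with the other 2 libraries of divergent composition. For the mean it was lost without male cisplatin 5, without female cisplatin 4, without the 3 libraries, with the replicate block and with the tubule marker score. That of Atf3 in males was lost without male cisplatin 1 or 3 or male saline 2, 3 or 5, with the replicate block and with the tubule marker score. The part of these signals in the Per1 and Per2 values was not tested.

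Markers of cell types were listed for the cells this dissection can hold, since in bulk RNA fewer cells of a type and less RNA per cell cannot be told apart. Of 16 proximal tubule markers 0 passed in males (median log2 fold change -0.50) and 0 in females (-0.53). Of 6 thick ascending limb markers Egf fell in males, and of 7 inner medullary collecting duct markers Aqp3 and Aqp4 fell in males. None of 4 thin limb markers passed. Among 9 tested macrophage markers Cd14 and Cd68 rose and Adgre1 fell in males. Over all tested genes 13.2% rose and 7.54% fell in males, and 0.272% changed in females. These lists are short and their counts were not tested. All 5 erythroid markers fell in both sexes, with a median of -4.98 in males and -4.51 in females. The clock genes were also set against a score averaged over those proximal tubule and thick ascending limb genes. The largest of the 10 correlations was that of Cry2 (r = -0.538, rho = -0.509, permutation p = 0.0102 and 0.0196, adjusted p for r = 0.102, r = -0.386 without the 2 farthest), and none passed. With this score removed, the Arntl and Dbp correlation was -0.837.

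The genes most like 3 of the members were found among the 13290 tested genes with a mean log2 CPM of at least 1, by Pearson's r over the 24 libraries with group means removed. These values describe a ranking and carry no test. Dbp was followed by Cirbp (0.849), an RNA-binding protein induced by mild cold, and by Tef (0.845), a relative of Dbp that binds the same D-box and was on the list of further clock genes. Tldc1 (0.822), 2810403D21Rik (0.804) and Plcxd1 (0.793) came next, and Egflam (-0.814), Rngtt (-0.797) and Srsf7 (-0.792) lay at the other end. Among the genes nearest to Arntl were Dact1 (0.901), Rpl26-ps6 (0.894), Xpo7 (0.868) and Kdr (0.853), with Mpdu1 (-0.874), Aspscr1 (-0.869) and Hdac3 (-0.841) at the other end. Rpl26-ps6 is a ribosomal protein pseudogene, whose reads may belong to its parent gene. Among those nearest to Per1 were Nfkb2 (0.876), an NF-kB subunit, Prodh (0.815), Baiap2 (0.790) and Crybg1 (0.789), with Yaf2 (-0.845), Cep97 (-0.806) and Sox18 (-0.797) at the other end.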

How the data were processed

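Counts of reads per gene and library were deposited by the authors as whole numbers under Ensembl identifiers. Per the submitters' processing notes, Trim Galore 0.6.7, Subread 2.0.1, featureCounts, DESeq2 1.28.1 and the mouse build mm10 were used, with no roles given. The sources used here do not give the aligner, annotation release or strand setting. Per the labels' protocols, RNA was extracted with a Zymo column kit and selected for poly(A). The 24 columns matched the 24 samples, with 0 columns of no sample. A symbol was found for 52083 of the 55416 identifiers, and coordinates and exon lengths came from an annotation of the same build (GENCODE M21).

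Genes were kept by filterByExpr (minimum count 10), leaving 18005, and libraries were scaled by TMM. All 24 libraries entered 1 quasi-likelihood fit in edgeR 4.0.16 (R 4.3.3) with the 4 group means as terms, with Benjamini-Hochberg adjustment over all 18005 genes. Levels are CPM of TMM-scaled libraries, and log2 CPM for correlations used a prior count of 2. The common biological coefficient of variation was 0.251. The fit and the permutation test were tested on simulated data. Correlations were tested with scipy 1.17.1 and numpy 2.4.6. DESeq2 1.42.0 was an alternative, as were other size factors, no filter, the 2 groups alone, a replicate block, a tubule marker score, other arms and leaving out libraries. Libraries of a group were not copies of each other: chi-square per gene was at least 7.92 over 61 pairs. Precision rests on 18.1 to 27.3 counts per library in units of 1000000.

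The members and lists were chosen with earlier results of these data known. Named were all members, list genes past the threshold (at most 6 per list) and the 5 highest and 3 lowest correlates of Arntl, Dbp and Per1; other list genes and individual libraries were named after their values were seen. Some genes that this rule selects are not reported here.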

Additional observations from a re-analysis of the deposited data

Results flagged for a closer look

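Values of 3 single libraries stood far from the rest of their group by the gap to the nearest library relative to the range. Per3 had 60.7 CPM in female saline 2, the highest of 7 libraries. Cry2 had 83.2 CPM in male saline 2, the highest of 6 libraries. Nr1d1 had 107 CPM in male cisplatin 6, the highest of 6 libraries, which was also the male cisplatin library with the lowest Lcn2 (213 CPM). Chance flags about 1 in 20 groups.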

How the results depend on the processing

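The number of clock genes past the threshold in males, 0 as reported, was 1 in DESeq2 and with the male libraries alone (Nr1d1 in both), 2 with the replicate block (Nr1d1 and Arntl, adjusted p = 0.0338 and 0.0388) and 0 to 3 leaving out 1 library. For the mean of both sexes it was 1 with RLE size factors (Nr1d1, 0.0494), 1 in DESeq2, 1 with the block (Nr1d1, 0.0260) and 0 to 4 leaving out 1 library. In females, and in the tests between sexes, it was 0 in every alternative. The replicate numbers carry no pairing in the labels, and libraries of 1 number did not deviate together (median r of -0.0919 to 0.130 over the pairs of groups), so the block rests on a shared number only.

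All genes called in males were 3731, and 2402 with the male libraries alone. Without the 3 libraries of divergent composition they were 2936, and 2554 to 5268 leaving out 1 library. In females they were 49, but 241 in DESeq2, 85 with no filter, 20 with the female libraries alone, 16 with the replicate block, 30 with the tubule score, 32 without male cisplatin 5, female saline 1 and female saline 6 (added after seeing the data) and 21 to 139 leaving out 1 library. The mean of both sexes gave 4881 (3336 to 6025 leaving out 1), females against males under saline 34 (DESeq2 58, tubule score 61, 21 to 41 leaving out 1) and under cisplatin 28 (DESeq2 127, tubule score 61, 12 to 120 leaving out 1).

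Of the alternative values of the members, 858 kept direction and call, 24 newly passed and 38 turned direction; of those of the list genes selected by the naming rule 695 kept both and 65 lost the call. Directions that turned were those of small differences. Cry2 in males was -0.146 with the tubule score and -0.0487 to 0.204 leaving out 1 library, in females 0.140 without the 3 libraries and -0.208 to 0.0530 leaving out 1, and for the mean -0.00285 with no filter, -0.159 with the score and -0.0636 to 0.0729 leaving out 1. Cry1 for the mean was -0.00584 with RLE size factors, -0.00599 in DESeq2, -0.0134 with no filter, -0.0245 with the score and -0.0806 to 0.0612 leaving out 1, and in females -0.0503 to 0.233. Dbp in females was -0.0835 to 0.753 leaving out 1, the lowest without female cisplatin 2. The cause was not tested.

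Pairs of members past the threshold were 22 of 45, 9 in cisplatin and 13 in saline libraries alone, where fewer libraries enter, and 26 without the 3 libraries. These 3 choices were made after seeing the data. Arntl with Nr1d1 turned to -0.654 in saline libraries, and Cry1 with Nr1d1 lost its call with RLE size factors (adjusted p = 0.0531). The arm difference, cisplatin median minus saline median, was -0.67 in males (-0.79 to -0.54 leaving out 1) and -0.93 in females (-1.02 to -0.46).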
